A study of Mus musculus with 48 samples.

Results

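The comparison described here set splenic regulatory T cells (Tregs) of 4 mice given the 3x mutein against those of 4 mice given PBS, when all 8 mice had also received an antibody that blocks MHC class II. These 8 libraries were taken by their labels from a series of 48, of which 32 were Tregs in 8 groups of 4 libraries and 16 were conventional CD4 T cells (Tcons) of the same mice. All mice were female C57BL/6, an inbred strain without a transgene, and were 8 to 12 weeks old. They received 2 intraperitoneal doses of 500 µg antibody, the first on the day before IL-2 and the second on the same day, then 25 µg of an IL-2 molecule or PBS under the skin, and spleens were taken on day 4. The 3x mutein is human IL-2 fused to an antibody Fc part and carries the 3 substitutions D20A, V91K and M104V. The other molecules of the series were WT IL-2, the same fusion without a substitution, and H16R, with a single one, at the same dose. Groups given an isotype control antibody in place of the blocking antibody were used to ask where the 3x response differed, and they also entered the fit of all 32 Treg libraries, which share an estimate of the spread. Each library came from 1 mouse, but 2 isotype WT IL-2 libraries, a group not compared here, carry the same mouse in their labels. The Treg library was made from the CD4 T cells that bound to beads against CD25, so the cells were not sorted on Foxp3. The study's methods describe a purity check of aliquots, in which Foxp3 staining was high in most samples, and that staining was not analysed here.

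IL-2 binds a receptor of 3 chains, of which CD25 (Il2ra) raises the affinity while the shared chains Il2rb and Il2rg signal through Jak1, Jak3 and the transcription factor STAT5. Tregs, the CD4 T cells defined by Foxp3, express CD25 at a high level and depend on IL-2 for their survival and number. They also receive signals through the T cell receptor (TCR) when it meets peptide on MHC class II, and effector Tregs, the activated state, are known to need this signal. The comparison therefore asked which transcripts an attenuated IL-2 molecule moved in Tregs while antigen presentation was blocked.

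Expected counts per library (in M, megacounts) came to 35.46 to 46.57 M with 3x and 27.5 to 38.38 M with PBS, of which 93.84% to 95.63% fell on protein-coding genes. Values are given as CPM, counts relative to the total of the library, after TMM scaling, a correction for the make-up of each library, and a gene was called at an adjusted p under 0.1 in the quasi-likelihood test of edgeR, adjusted by Benjamini-Hochberg over all genes. The 5 Treg markers, with Foxp3, Il2ra and Ctla4 among them, summed to 2815 to 3040 CPM with PBS and 3942 to 4476 CPM with 3x, against 548 to 570 CPM and 456 to 473 CPM in the Tcons of the same groups. Markers of other cells were present as well. The 10 B cell markers summed to 71.2 to 162 CPM with PBS and 60.1 to 134 CPM with 3x, the 5 plasma cell markers to 622 to 1964 CPM and 592 to 1384 CPM, and the 10 MHC class II genes to 490 to 927 CPM and 473 to 581 CPM, all with overlapping groups. The 10 myeloid markers summed to 32.8 to 70.8 CPM with PBS and 86.3 to 123 CPM with 3x, and 3 of the 9 tested rose, Itgam (3.53), Fcgr3 (1.80) and Ly6c2 (0.79) on the log2 scale. Itgam, the CD11b integrin chain, was at 2.78, 3.69, 4.09 and 2.73 CPM with PBS and 45.6, 33.0, 35.5 and 40.6 CPM with 3x, while Csf1r (log2 fold change 0.20), Lyz2 (0.18) and Cd68 (−0.25) did not pass the test. The 7 dendritic cell markers summed to 21.8 to 34.8 CPM and 22.7 to 32.3 CPM, with 2 higher and 4 lower with 3x, and the 8 erythroid markers to 13.8 to 57.8 CPM and 9.07 to 17.6 CPM, with 2 of 6 tested lower. In bulk RNA, more cells with a transcript and more transcript per cell cannot be told apart. Of the markers on these lists only the erythroid Hba-a2 was at 0 counts in all 8 libraries. The libraries given 3x were not alike: replicate 2 was the nearest to PBS for 5743 of the called genes below (63.5%), and each of the other 3 for 897 to 1214.

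With MHC class II blocked, 3x moved most of the Treg transcriptome. Of 12390 genes tested, 9040 (73.0%) differed between 3x and PBS, 4295 (34.7%) higher and 4745 (38.3%) lower with 3x. The changes were mostly small, with a median absolute log2 fold change of 0.43 among called genes and a median of −0.04 over all genes. Changes beyond 2 on the log2 scale went up more often than down. A log2 fold change of at least 1 was reached by 672 genes that rose and 703 that fell, one of at least 2 by 186 and 60, and one of at least 3 by 84 and 10. The 4 values with 3x did not overlap the 4 with PBS for 7898 genes (63.7%). Shares of 73.0% called, 34.7% up and 38.3% down are the background against which every gene list below has to be read.

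**Figure D1:**
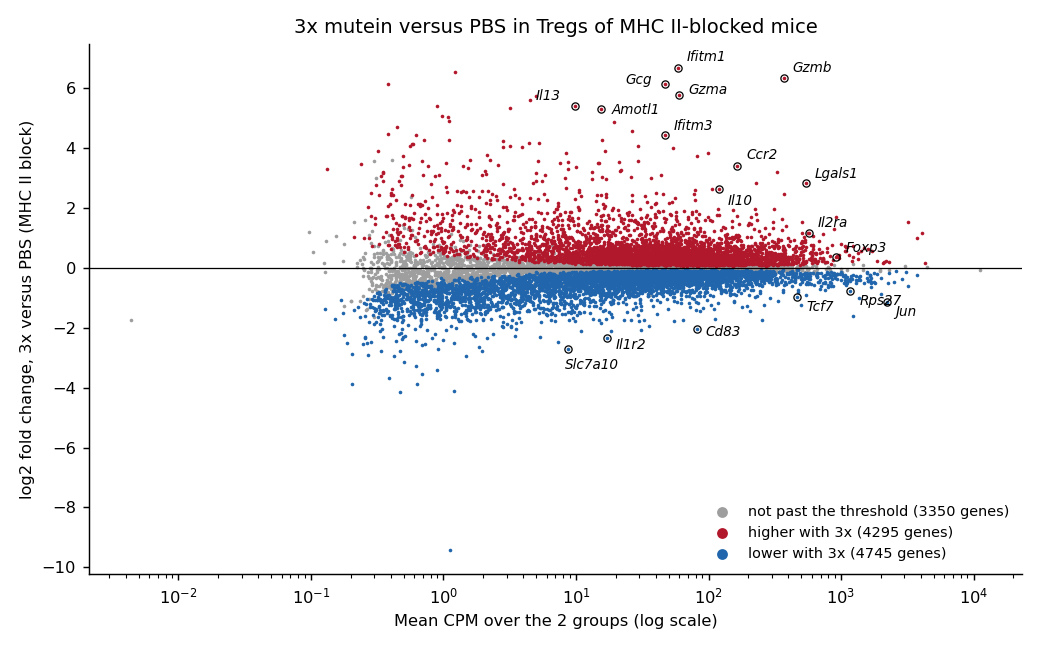
Log2 fold change of 3x over PBS (vertical axis) against the mean CPM of both groups (horizontal axis, log scale) for each of the 12390 genes tested in Tregs of MHC II-blocked mice. Red points (4295 genes) were higher with 3x, blue points (4745 genes) lower and grey points did not pass the threshold; named genes are circled, and more red than blue points lie beyond a log2 fold change of 2 in size. The lowest point, at −9.42, is B430305J03Rik, which had 0 counts in all 4 libraries with 3x, so that its fitted value is no measure of the fold.

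The 15 largest rises, taken among genes with a mean above 5 CPM whose groups did not overlap, were led by Ifitm1, Gzmb, Gcg, Gzma and Il13. Ifitm1, which encodes a membrane protein that restricts the entry of viruses, was at 0.915, 1.64, 1.03 and 0.993 CPM with PBS and 129, 60.4, 123 and 154 CPM with 3x, a log2 fold change of 6.67 ± 0.44 (SE, adjusted p = 3.26e-13). Gzmb, the serine protease granzyme B of cytotoxic granules, was at 10.3, 9.52, 8.45 and 7.60 CPM with PBS and 819, 481, 705 and 909 CPM with 3x, a log2 fold change of 6.35 ± 0.29 (SE, adjusted p = 2.01e-16). Every 3x library exceeded every PBS library for both genes, and 3x replicate 2 was the lowest of its group. Gcg, known as the gene for glucagon, was at 1.69, 1.17, 1.54 and 0.807 CPM with PBS and 79.1, 95.6, 111 and 82.2 CPM with 3x (6.14 ± 0.42 SE, adjusted p = 6.65e-13), and here replicate 3 was the highest and replicate 2 was not set apart. Gzma, for granzyme A, was at 1.83, 2.46, 2.25 and 2.14 CPM with PBS and 91.6, 92.3, 98.6 and 188 CPM with 3x (5.75 ± 0.35 SE, adjusted p = 6.42e-14), where replicate 4 stood far above the other 3 with 3x. The 2 CD8 T cell markers, Cd8a and Cd8b1, summed to 7.41 to 9.11 CPM with PBS and 13.4 to 35.9 CPM with 3x, again highest in replicate 4, and both rose. The 7 NK cell markers summed to 42.7 to 55.2 CPM and 44.9 to 57.8 CPM, with overlapping groups. Of the 6 tested 4 rose, namely Ncr1, an activating receptor of NK cells (0.95 ± 0.20 SE, adjusted p = 1.43e-04), Klre1 (2.01), Klrk1 (0.54) and Klra8 (3.30, at most 3 counts per PBS library). The other 2, Klrb1c (−0.77) and Eomes (−0.72), fell. The part of such cells in the granzyme results was not tested. Il13, a cytokine of type 2 helper cells, was at 0.317, 0.378, 0.631 and 0.434 CPM with PBS and 16.8, 15.8, 19.5 and 25.0 CPM with 3x (5.41 ± 0.32 SE, adjusted p = 2.66e-14). The groups were separate for Gcg, Gzma and Il13, as for all 15 genes by the rule that named them.

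The other genes among the 15 were Amotl1 (5.31), Ggt1 (4.86), Lgals7 (4.55), Ifitm3 (4.42), 1500009L16Rik (4.28), Nckap5 (4.17), Fam20a (4.06), Ifitm2 (4.00), Frmd5 (3.88) and Lgals3 (3.83), with the log2 fold change in parentheses. Amotl1, an angiomotin-like protein of cell junctions, varied least, at 0.985, 0.694, 0.631 and 0.776 CPM with PBS and 32.1, 27.5, 30.8 and 30.7 CPM with 3x, so that its rise of 5.31 ± 0.20 (SE) had the smallest adjusted p of the 15, 1.40e-17. Ggt1, a gamma-glutamyltransferase that acts on glutathione outside the cell, was at 1.302, 1.36, 1.41 and 1.12 CPM with PBS and 39.1, 21.4, 39.4 and 50.8 CPM with 3x and rose by 4.86 ± 0.25 (SE, log2). Replicate 2 was again the lowest with 3x, though still above every PBS library.

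The 15 largest falls were shallower and were led by Slc7a10 (−2.72), Serpinc1 (−2.48), Il1r2 (−2.36), Gm3500 (−2.30), Sspo (−2.12), Plagl1 (−2.10), Fam43a (−2.08) and Cd83 (−2.05). Slc7a10, a neutral amino acid transporter, was at 13.1, 15.9, 12.3 and 19.3 CPM with PBS and 1.57, 3.87, 2.04 and 1.75 CPM with 3x, a log2 fold change of −2.72 ± 0.25 (SE, adjusted p = 1.92e-10). Il1r2, the decoy receptor for IL-1, was at 17.7, 25.9, 28.3 and 42.4 CPM with PBS and 4.99, 6.94, 6.31 and 4.18 CPM with 3x (−2.36 ± 0.35 SE, adjusted p = 1.27e-06), with PBS replicates that ranged over more than the 3x replicates did. Cd83, a surface protein of activated lymphocytes and dendritic cells, was at 108, 135, 142 and 139.8 CPM with PBS and 27.5, 42.4, 30.1 and 26.7 CPM with 3x (−2.05 ± 0.17 SE, adjusted p = 2.52e-11), and replicate 2 was the highest with 3x. Of the 7 dendritic cell markers 4 were lower with 3x as well, but 2 were higher, Xcr1 (1.63) and Itgax (0.86), and the part of such cells was not tested. The others given here were Hspa1a (−1.95), Gucy1a1 (−1.85), Gm3752 (−1.79), Prpf40b (−1.78), Zbtb10 (−1.78) and Lta (−1.76), and Gm3500 and Gm3752 are predicted genes whose reads may be shared with near-identical copies. The groups were separate for each of these genes, as the rule that named them required.

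**Figure D2:**
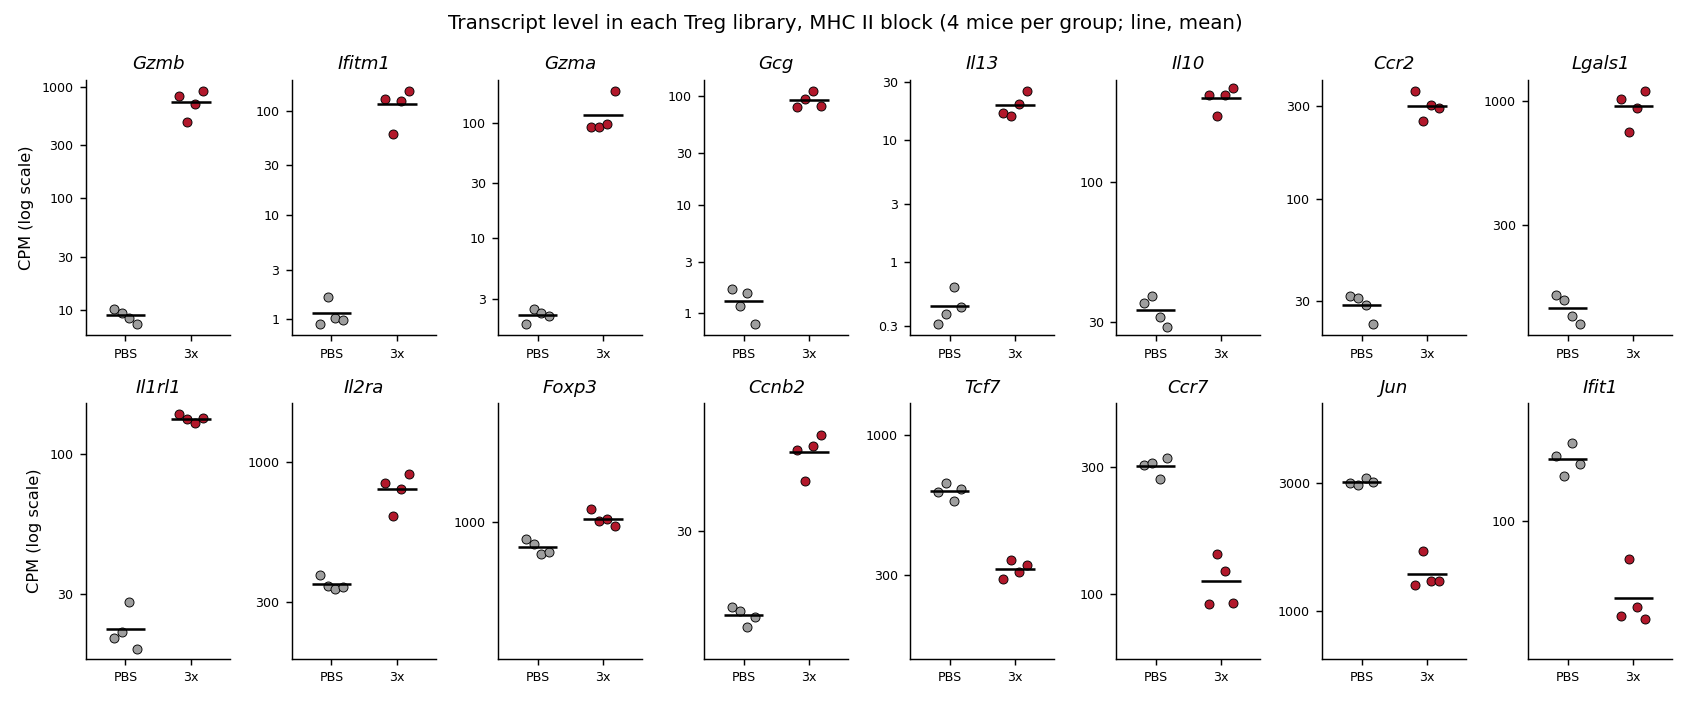
CPM of 16 genes (vertical axes, log scale, with a range of its own for each gene) in the 4 PBS (grey) and 4 3x (red) Treg libraries of MHC II-blocked mice; each point is 1 mouse and the line is the mean. Gzmb, Ifitm1, Gzma, Gcg, Il13, Il10, Ccr2, Lgals1, Il1rl1, Il2ra, Foxp3 and Ccnb2 are higher in every 3x library, and Tcf7, Ccr7, Jun and Ifit1 are lower in every one.

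In the IL-2 pathway itself, transcripts of the receptor chains rose while those of STAT5 fell slightly. Il2ra was at 379.8, 345, 337 and 343 CPM with PBS and 836, 629, 797 and 907 CPM with 3x (1.17 ± 0.10 SE, adjusted p = 1.73e-11), where the groups were separate and replicate 2 was the lowest with 3x. CD25 was also the protein by which the cells were purified. Il2rb rose by 0.74 ± 0.06 and Il2rg by 0.44 ± 0.04 (SE, log2), while Stat5a fell by 0.24 ± 0.05 (SE, adjusted p = 3.92e-04) and Stat5b, at 364, 359.6, 339 and 358 CPM with PBS and 317, 339, 324 and 306 CPM with 3x, fell by 0.14 ± 0.04 (SE, adjusted p = 0.00321), a call that was lost when genes of all biotypes were fitted. Of the 21 tested genes of the receptor and STAT5 list, 13 rose and 6 fell, with a median log2 fold change of 0.44. Among the feedback inhibitors that STAT5 induces, Socs2 was at 32.3, 24.8, 29.1 and 26.0 CPM with PBS and 109, 85.0, 112 and 107 CPM with 3x, a rise of 1.88 ± 0.13 (SE, adjusted p = 1.46e-12), and Cish at 188, 173, 193 and 176 CPM with PBS and 249, 232, 241 and 218 CPM with 3x, a rise of 0.36 ± 0.06 (SE, adjusted p = 4.50e-06). Both were higher in every 3x library, while Socs1 (−0.06 ± 0.08 SE, adjusted p = 0.514) did not pass. Il1rl1, the IL-33 receptor ST2 of tissue Tregs, rose from 20.6, 21.7, 28.1 and 18.7 CPM to 142, 135, 130.3 and 136 CPM, by 2.60 ± 0.12 (SE, adjusted p = 4.68e-16). The members that fell included Lta (−1.76), Bcl2 (−0.92), Myc (−0.77) and Pim2 (−0.29), of which Lta is the cytokine lymphotoxin alpha, Bcl2 an inhibitor of cell death, Myc a driver of growth and Pim2 a kinase. Bcl2 and Myc are commonly counted as IL-2 targets, and both were lower in every 3x library, Bcl2 at 208, 200.0, 227 and 215 CPM with PBS and 97.7, 124, 116 and 111 CPM with 3x and Myc at 92.0, 89.8, 91.8 and 86.4 CPM with PBS and 50.6, 58.3, 52.4 and 50.0 CPM with 3x.

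STAT5 dimers bind the palindrome TTCNNNGAA, and the RefSeq promoters of Cish and Gzmb are shown because one is the textbook STAT5 target and the other the largest rise of a granzyme. Each runs from 250 bases before to 50 after the RefSeq start of the gene (GRCm38.p6), 5′ to 3′ on the strand of the gene, with the palindrome, which reads the same on both strands, in capitals.
Cish, chr9:107296409-107296708 (plus strand): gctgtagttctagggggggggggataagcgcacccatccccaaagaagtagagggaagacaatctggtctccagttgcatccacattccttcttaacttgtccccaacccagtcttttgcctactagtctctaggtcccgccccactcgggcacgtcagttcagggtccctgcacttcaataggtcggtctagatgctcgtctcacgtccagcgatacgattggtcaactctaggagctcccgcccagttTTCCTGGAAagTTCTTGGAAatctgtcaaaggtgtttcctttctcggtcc
Gzmb, chr14:56262285-56262584 (minus strand): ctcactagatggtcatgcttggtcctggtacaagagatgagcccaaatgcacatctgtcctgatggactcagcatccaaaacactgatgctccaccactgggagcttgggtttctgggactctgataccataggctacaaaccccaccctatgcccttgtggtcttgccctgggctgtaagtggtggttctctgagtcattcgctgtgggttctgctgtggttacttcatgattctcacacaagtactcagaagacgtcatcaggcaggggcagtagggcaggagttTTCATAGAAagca
Cish held the palindrome at positions 1 and 12 from the start of the gene and Gzmb at position 38. Among the 9763 tested genes with a promoter in the table, 8.3% held it, against 8.5% of those higher with 3x, 8.7% of those lower, and 3 of the 16 genes of the IL-2 receptor and STAT5 list (18.8%). A match in this window is a description of the letters and was not linked here to binding.

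Foxp3 rose by a small amount and the Treg lineage list was split. Foxp3, the factor that defines Tregs, was at 869, 829, 765 and 775 CPM with PBS and 1125, 1009, 1029 and 969 CPM with 3x, a log2 fold change of 0.35 ± 0.06 (SE, adjusted p = 3.10e-06), and every 3x library exceeded every PBS library. Of 17 lineage genes 7 rose and 6 fell, with a median of −0.07, close to the background of all genes. The rises included Entpd1 (1.04), Tnfrsf18 (0.73) and Ctla4 (0.56), for the ectonucleotidase CD39, the receptor GITR and the coinhibitory receptor CTLA-4, and the falls Itgb8 (−0.71), Gpr83 (−0.60), Ikzf4 (−0.53) and Izumo1r (−0.38), for the integrin chain that frees TGF-beta, a G protein-coupled receptor, the factor Eos and the folate receptor 4. Ctla4 was at 858, 879.6, 831 and 894 CPM with PBS and 1385, 1196, 1279.9 and 1235 CPM with 3x, with separate groups. Itgb8 fell by 0.71 ± 0.14 (SE, adjusted p = 6.16e-05), from 39.5, 43.3, 39.8 and 38.9 CPM with PBS to 25.7, 29.6, 23.3 and 20.0 CPM with 3x.

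Genes of effector Tregs rose almost as a block: 23 of 28 were higher, 2 were lower, and the median log2 fold change was 0.83. Among their 17 surface molecules 16 rose and 0 fell. Havcr2, the coinhibitory receptor TIM-3, showed the largest rise at 3.56 ± 0.18 (SE, adjusted p = 1.51e-15), from 6.33, 3.69, 5.17 and 3.13 CPM to 62.8, 42.0, 54.9 and 56.0 CPM. Icos, a costimulatory receptor on which effector Tregs depend, was at 175, 179, 174 and 176 CPM with PBS and 459.7, 406, 452 and 432 CPM with 3x (1.31 ± 0.11 SE, adjusted p = 6.50e-11), and Lag3, an MHC class II-binding coinhibitory receptor, at 97.8, 113, 88.1 and 111 CPM with PBS and 376, 283, 396 and 369 CPM with 3x (1.80 ± 0.20 SE, adjusted p = 6.55e-09). The groups were separate for both genes. Klrg1, a marker of terminally differentiated T cells, rose by 1.85 ± 0.18 (SE, adjusted p = 7.57e-10). Prdm1, the effector factor Blimp-1, rose from 37.6, 40.6, 40.4 and 37.2 CPM to 116, 96.5, 108 and 114 CPM (1.48 ± 0.09 SE, adjusted p = 3.21e-14), whereas Bhlhe40 (−0.32) and Rela (−0.21) were the 2 members that fell.

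The list of suppressor molecules gave 8 rises and 3 falls among 12. It includes Gzma and Gzmb, which are counted again among the cytotoxic genes below. Il10, the anti-inflammatory cytokine, was at 35.4, 37.5, 31.4 and 28.8 CPM with PBS and 213, 177, 212 and 226 CPM with 3x, a log2 fold change of 2.64 ± 0.15 (SE, adjusted p = 1.71e-14), with every 3x library above every PBS library. Areg, the tissue repair factor amphiregulin, was at 18.5, 21.3, 21.2 and 20.8 CPM with PBS and 31.4, 36.2, 31.5 and 28.0 CPM with 3x (0.63 ± 0.12 SE, adjusted p = 3.22e-05), and Fgl2, a secreted fibrinogen-like protein, rose by 1.70 ± 0.11 (SE, adjusted p = 1.23e-13). The 3 falls were Penk (−0.93), Pde3b (−0.87) and Ebi3 (−0.69), for proenkephalin, a phosphodiesterase and a chain of IL-27 and IL-35.

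Genes of the naive and recirculating state went the other way. Of 17, 12 fell and 2 rose, with a median of −0.47, and of the 8 transcription factors among them 7 fell and 0 rose. Tcf7, the factor TCF-1, was at 612, 661, 566 and 626 CPM with PBS and 287, 339, 306 and 327 CPM with 3x (−0.97 ± 0.09 SE, adjusted p = 1.01e-10), and Bach2, a repressor that keeps T cells from effector differentiation, fell by 0.81 ± 0.11 (SE, adjusted p = 3.77e-07). Ccr7, the chemokine receptor for lymph node homing, was at 304, 310.3, 269 and 322 CPM with PBS and 92.2, 141, 122 and 92.9 CPM with 3x (−1.43 ± 0.13 SE, adjusted p = 1.46e-10). S1pr1, for the receptor that lets lymphocytes leave lymphoid organs, was among the 2 that rose, by 0.78 ± 0.07 (SE, adjusted p = 3.98e-10) on the log2 scale.

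Since MHC class II was blocked in both groups, genes that the TCR induces were of interest. Of 27 such genes 17 fell and 5 rose with 3x, with a median of −0.40, and of their 14 immediate early transcription factors 10 fell and 2 rose. Jun, a subunit of AP-1, was at 2991, 2958, 3146 and 3031 CPM with PBS and 1253, 1674, 1292 and 1294 CPM with 3x (−1.14 ± 0.10 SE, adjusted p = 6.47e-11), where replicate 2 was the highest with 3x but below every PBS library. Fosb fell by 1.61 ± 0.12 (SE, adjusted p = 3.00e-12) and Nr4a2 by 1.03 ± 0.17 (SE, adjusted p = 4.98e-06). Nr4a1, the gene of the TCR reporter Nur77, was at 675, 671, 602 and 637 CPM with PBS and 510.4, 697, 651 and 433 CPM with 3x, with overlapping groups, and its log2 fold change of −0.17 ± 0.11 (SE, adjusted p = 0.154) did not pass the test. Egr3 (0.14 ± 0.09 SE, adjusted p = 0.18) and Cd5 (0.07 ± 0.05 SE, adjusted p = 0.185) did not pass either. The 5 rises were Dusp5 (0.72), Irf4 (0.39), Nfatc1 (0.30), Dusp2 (0.19) and Nfkbia (0.12), of which Nfkbia was named after its values were seen and lost its call by total counts without TMM, and Dusp2 lost its call without PBS replicate 2.

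The machinery of the receptor moved less. Of 27 genes of the TCR complex and its proximal kinases 12 rose and 6 fell, with a median of 0.08, and 5 of the 6 chains and coreceptors rose. Cd247, the zeta chain, rose by 0.37 ± 0.06 and Zap70, the kinase that binds it, by 0.35 ± 0.06 (SE, log2). Of 24 calcium and NFAT genes 14 rose and 4 fell, with Calm3 (0.74), Orai1 (0.64), Stim1 (0.51) and Nfatc3 (0.38) among the rises. Stim1, the sensor of stored calcium, was at 112, 109.5, 107 and 104.5 CPM with PBS and 153, 149, 153 and 161 CPM with 3x, with separate groups. Of 21 NF-kB genes 11 fell and 5 rose. Rel, the c-Rel subunit, fell by 0.84 ± 0.15 (SE, adjusted p = 2.58e-05) and Map3k14, the kinase NIK, by 0.50 ± 0.05 (SE, adjusted p = 2.21e-09), while Bcl3 rose by 0.82 ± 0.12 (SE, adjusted p = 4.20e-07). Among 13 receptors of the TNF family 6 rose and 5 fell, with Tnfrsf1b (0.86), Tnfrsf4 (0.82) and Tnfrsf9 (0.81) up, for TNFR2, OX40 and 4-1BB, and Tnfrsf25 (−0.72) and Tnfrsf10b (−0.35) down, for DR3 and a TRAIL receptor.

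Chemokine and sphingosine phosphate receptors, which guide the migration of cells, mostly rose. Of 17 on the list 12 rose and 4 fell, with a median of 1.18. Ccr2 was at 31.7, 30.9, 28.6 and 23.0 CPM with PBS and 355, 250.4, 301 and 289.9 CPM with 3x (3.39 ± 0.14 SE, adjusted p = 5.24e-17). It binds chemokines of inflamed tissue and was higher in every 3x library, with replicate 2 the lowest of its group. Ccr3 rose by 3.82 ± 0.33, Ccr1 by 2.35 ± 0.44 and Ccr4 by 1.89 ± 0.10, whereas Ccr7, Ccr6 (−1.41 ± 0.15), Cxcr4 (−1.14 ± 0.12) and Cxcr5 (−0.70 ± 0.09; SE, log2) fell. Among 21 integrins and adhesion molecules 14 rose and 5 fell, and the collagen and laminin receptor chains Itga1 (2.54 ± 0.21) and Itga2 (2.36 ± 0.12) rose most.

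Granzymes and galectins rose widely. Of 10 cytotoxic genes 7 rose and 1 fell, with a median of 1.88. Next to Gzmb and Gzma, Gzmk rose by 3.10 ± 0.51 and the granule protein Nkg7 by 2.62 ± 0.14 (SE, log2). Gzmm (0.18 ± 0.33 SE, adjusted p = 0.643) and Fasl (0.08 ± 0.14 SE, adjusted p = 0.627) did not pass. Of 16 galectin, S100 and annexin genes 15 rose and 0 fell, with a median of 1.43. Lgals1, a secreted lectin tied to suppression by Tregs, was at 151, 145, 123 and 115 CPM with PBS and 1020.5, 736, 937 and 1097 CPM with 3x (2.83 ± 0.15 SE, adjusted p = 4.94e-15), and Lgals3 at 13.8, 14.6, 12.7 and 10.6 CPM with PBS and 197, 129, 189.8 and 222 CPM with 3x (3.83 ± 0.21 SE, adjusted p = 7.46e-15). S100a6, a calcium-binding protein, rose by 3.18 ± 0.16 and Anxa2, a membrane-binding annexin, by 2.84 ± 0.14. Genes of the cytoskeleton followed, with 19 of 21 higher and 1 lower, among them Vim (1.69), the intermediate filament vimentin, Actg1 (1.53) and Actb (1.15), the cytoplasmic actins.

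Helper cytokines were low with PBS and rose in part. Of 16 helper lineage genes 9 rose and 4 fell. Il4 was at 1.51, 1.01, 2.19 and 1.64 CPM with PBS and 13.3, 12.4, 15.0 and 22.6 CPM with 3x (3.30 ± 0.28 SE, adjusted p = 3.93e-11) and Il21, a cytokine of follicular helper cells, at 3.41, 3.88, 3.63 and 4.50 CPM with PBS and 29.2, 24.0, 28.3 and 38.1 CPM with 3x (2.96 ± 0.41 SE, adjusted p = 3.72e-07). Both had separate groups. Il2 itself fell by 1.62 ± 0.46 (SE, adjusted p = 0.0028), from 0.493, 0.378, 0.378 and 0.310 CPM to 0.152, 0.266, 0.0558 and 0.0213 CPM. Il17a (−0.94 ± 0.55 SE, adjusted p = 0.128) and Il22 (−0.27 ± 0.38 SE, adjusted p = 0.548) did not pass. Among 22 receptors of cytokines and hormones 12 rose and 7 fell, among the rises Vdr, the vitamin D receptor, at 3.66, 4.22, 3.83 and 4.99 CPM with PBS and 35.7, 32.3, 39.0 and 51.97 CPM with 3x (3.25 ± 0.32 SE, adjusted p = 9.41e-10), and Il12rb2, a chain of the IL-12 receptor, at 4.26, 3.53, 3.28 and 4.93 CPM with PBS and 16.1, 12.5, 12.9 and 16.2 CPM with 3x (1.85 ± 0.14 SE, adjusted p = 8.59e-12).

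Several of the largest rises lay next to each other on a chromosome, and 3 such stretches were chosen for description after their values were seen. Their counts of higher genes follow in part from that choice, and of all tested genes 34.7% were higher. Genes almost without reads with PBS, such as Cma1, Mcpt8 and Nlrp6, passed the filter through other libraries and could hardly have been called lower. At the granzyme B locus, between Khnyn and Parp4 on chromosome 14, 21 protein-coding genes were listed, 12 were tested, 8 were higher and 1 was lower. Next to Gzmb, Gzmc rose by 2.41 ± 0.17 (SE, log2), from 0.845, 0.599, 0.883 and 0.838 CPM to 4.92, 3.65, 3.77 and 4.52 CPM. The mast cell proteases Mcpt1 (5.34), Mcpt8 (5.04), Cma1 (4.43), Mcpt4 (3.42) and Mcpt2 (2.50) also rose but had at most 11 counts in any PBS library, and these genes resemble one another enough that reads may have been assigned to the wrong copy. The 12 markers of basophils and mast cells, a list added after the values were seen, summed to 49.7 to 82.0 CPM with PBS and 55.5 to 62.4 CPM with 3x, with overlapping groups. Among them Ms4a2 and Fcer1a, chains of the IgE receptor, had at most 6 and 5 counts per PBS library and 7 and 20 per 3x library. Hdc, the histidine decarboxylase, rose by 3.53 ± 0.45 and Cd200r3 by 1.67 ± 0.29 (SE, log2). Kit, the mast cell growth factor receptor, fell by 0.80 ± 0.17 and Prg2 by 1.45 ± 0.29 (SE, log2), while Cpa3, Gata1 and Gata2 did not pass. Beyond the family, Khnyn at one end rose by 0.29 ± 0.05 (SE, adjusted p = 4.53e-06) and Rnf17, with a call that was lost under several alternatives, fell by 0.76 ± 0.36 (SE, adjusted p = 0.0666), while Cenpj (0.02 ± 0.05 SE, adjusted p = 0.733) and Parp4 (−0.01 ± 0.05 SE, adjusted p = 0.935) did not pass. At the Ifitm cluster on chromosome 7, 15 genes were listed, 11 were tested and 9 were higher, among them Ifitm1, Ifitm3, Ifitm2 (4.00 ± 0.29) and Ifitm6 (3.76 ± 0.67), paralogs to which the same doubt applies. Nlrp6, an inflammasome sensor beside the cluster, rose from 0.0352, 0.0946, 0.0505 and 0.0310 CPM, or 1 to 3 counts, to 1.31, 1.04, 1.79 and 3.39 CPM, while Sirt3 (−0.10 ± 0.11 SE, adjusted p = 0.424) and Sigirr (−0.02 ± 0.04 SE, adjusted p = 0.705) at its ends did not pass. Other neighbors rose as well, Psmd13, a proteasome subunit, by 0.86 ± 0.06 and Pkp3, a plakophilin, by 1.01 ± 0.10 (SE, log2). At the Th2 cytokine locus on chromosome 11, 5 of 7 genes tested were higher. Il4, Il13 and Il5 (2.42 ± 0.59 SE, adjusted p = 6.69e-04, with 1 to 6 counts per PBS library) rose, as did the neighbors Irf1 (0.27 ± 0.07) and Gm17334 (0.52 ± 0.13; SE, log2), which overlap on opposite strands, whereas Rad50 (−0.06 ± 0.04 SE, adjusted p = 0.225), which lies between Il13 and Il5 and holds a known control region of the locus, did not pass, nor did Kif3a (−0.06 ± 0.09 SE, adjusted p = 0.568).

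**Figure D3:**
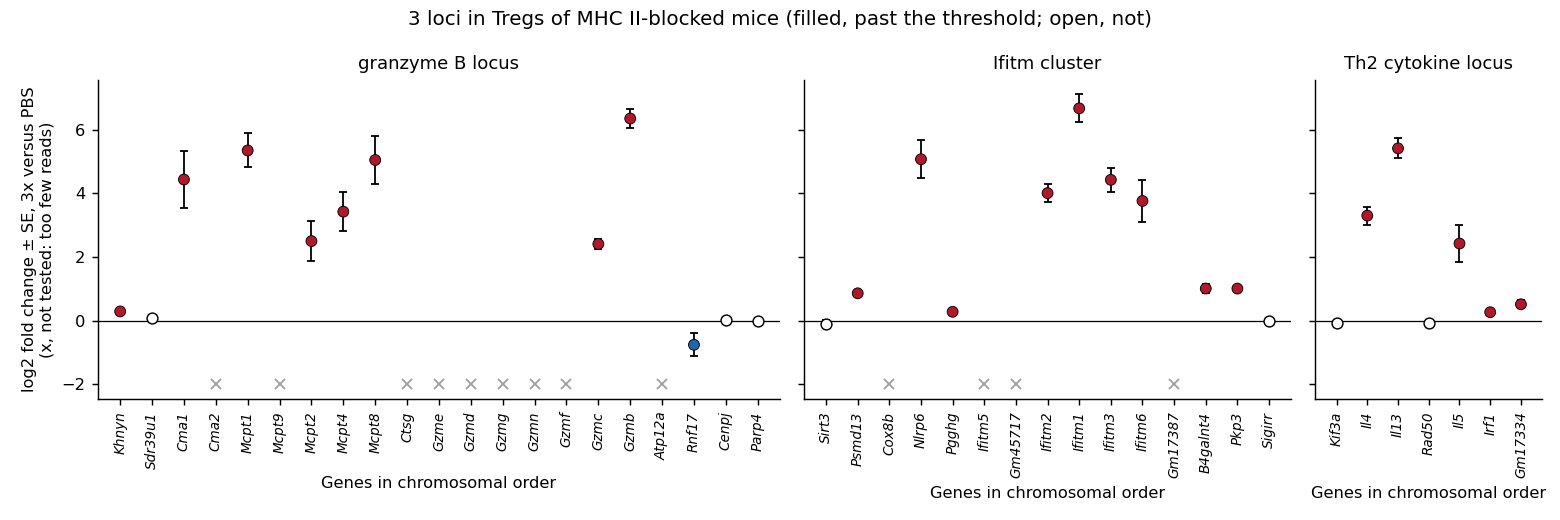
Log2 fold change of 3x over PBS with its standard error (vertical axis) for genes in chromosomal order (horizontal axis) at the granzyme B locus, the Ifitm cluster and the Th2 cytokine locus in Tregs of MHC II-blocked mice. Filled points passed the threshold, open points did not, and crosses mark genes with too few reads to test; the granzyme, protease, Ifitm and interleukin genes tested lie above 0, and of their neighbors some rose, such as Psmd13, Pkp3 and Khnyn, and others lie near 0, such as Cenpj, Parp4, Sirt3, Sigirr, Rad50 and Kif3a.

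Transcripts of mitosis rose as a group. Of 40 genes of the G2 and M phases 39 rose and 1 fell, with a median log2 fold change of 1.61. Ccnb2, a mitotic cyclin, was at 15.7, 15.1, 13.1 and 14.4 CPM with PBS and 60.4, 46.2, 62.5 and 68.9 CPM with 3x (2.03 ± 0.18 SE, adjusted p = 1.05e-10), and Mki67, the proliferation marker Ki-67, at 184, 174, 169 and 172 CPM with PBS and 505, 504, 539 and 610.4 CPM with 3x (1.63 ± 0.14 SE, adjusted p = 3.66e-11). Every 3x library exceeded every PBS library for both. Pttg1, the anaphase inhibitor securin, was the only member that fell (−0.30 ± 0.07 SE, adjusted p = 3.25e-04). Genes of the S phase rose less, 34 of 46 with 1 fall and a median of 0.35, and the licensing factors Cdt1 (0.10 ± 0.05 SE, adjusted p = 0.117) and Mcm2 (0.09 ± 0.07 SE, adjusted p = 0.275) did not pass. Rrm2, the inducible subunit of ribonucleotide reductase, rose by 1.63 ± 0.14 (SE, adjusted p = 5.76e-11).

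Inhibitors of the cell cycle rose at the same time. Cdkn2a, the locus of p16 and p19ARF, was at 0.422, 0.378, 0.732 and 0.310 CPM with PBS and 9.21, 5.37, 9.68 and 9.37 CPM with 3x (4.15 ± 0.36 SE, adjusted p = 5.08e-11), and Cdkn1a, for p21, at 12.2, 13.0, 13.2 and 11.4 CPM with PBS and 36.3, 33.4, 43.3 and 37.7 CPM with 3x (1.60 ± 0.13 SE, adjusted p = 3.69e-11). Cdkn2b, for p15, and Cdkn2c, for p18, rose by 4.04 ± 0.37 and 2.21 ± 0.11 (SE, log2). All 4 had separate groups. Cdkn1b, for p27, the inhibitor of resting T cells, fell by 0.38 ± 0.08 (SE, adjusted p = 1.01e-04), as did the antiproliferative genes Btg1 (−0.49 ± 0.07) and Btg2 (−0.44 ± 0.06). The list of cell cycle entry as a whole had 12 rises and 4 falls among 19.

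Promoters of mitotic genes are known to carry CCAAT boxes and the element TTTGAA (CHR), and those of S phase genes E2F sites, searched here as TTTGGCGC, TTTCCCGC, TTTGCCGC and TTTCGCGC on both strands. The promoters of Ccnb2, described above, of Cdc20, an activator of mitotic exit, and of Mcm6, a subunit of the replicative helicase, are shown to make this visible, and the latter 2 genes were chosen after their values were seen (RefSeq, GRCm38.p6, same window). Capitals mark CCAAT and CHR matches in Ccnb2 and Cdc20 and E2F matches in Mcm6, on either strand.
Ccnb2, chr9:70421505-70421804 (minus strand): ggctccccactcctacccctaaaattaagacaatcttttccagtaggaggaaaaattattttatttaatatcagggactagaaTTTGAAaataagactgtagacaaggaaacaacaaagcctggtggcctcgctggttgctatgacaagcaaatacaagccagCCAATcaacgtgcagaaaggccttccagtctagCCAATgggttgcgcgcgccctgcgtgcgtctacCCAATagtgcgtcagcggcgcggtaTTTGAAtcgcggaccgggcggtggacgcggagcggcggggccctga
Cdc20, chr4:118437294-118437593 (minus strand): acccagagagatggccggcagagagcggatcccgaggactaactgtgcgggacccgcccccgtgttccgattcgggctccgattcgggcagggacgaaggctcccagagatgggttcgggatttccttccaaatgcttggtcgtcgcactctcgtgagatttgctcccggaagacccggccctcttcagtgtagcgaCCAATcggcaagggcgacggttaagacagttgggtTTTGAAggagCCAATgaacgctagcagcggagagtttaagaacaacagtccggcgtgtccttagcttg
Mcm6, chr1:128359656-128359955 (minus strand): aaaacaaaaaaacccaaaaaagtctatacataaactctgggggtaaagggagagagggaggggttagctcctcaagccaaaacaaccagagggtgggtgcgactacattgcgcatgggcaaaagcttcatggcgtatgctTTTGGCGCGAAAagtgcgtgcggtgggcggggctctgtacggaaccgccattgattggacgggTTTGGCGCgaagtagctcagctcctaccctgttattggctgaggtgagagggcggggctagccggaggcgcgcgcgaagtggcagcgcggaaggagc
The 3 genes rose by 2.03 ± 0.18, 1.36 ± 0.15 and 0.26 ± 0.07 (SE, log2). TTTGAA stood in 25 of the 35 G2 and M promoters in the table (71.4%) and in 24.4% of those of genes with a rise of at least 1, against 14.6% of all tested promoters. An E2F site stood in 15 of 37 S phase promoters (40.5%), against 4.6% of all tested. The CCAAT box, found in 42.9% of tested promoters, stood in 71.4%, 59.5% and 87.0% of those of the mitotic, S phase and sterol and fatty acid lists. In Mcm6 the matches at −110 and −106 overlap each other. The lists were compiled from known members of each phase, so that these shares describe the lists and were not tested.

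Metabolic genes rose in part, and those of the ribosome fell. Of 77 oxidative phosphorylation genes 61 rose and 3 fell, with a median of 0.35, among them the complex IV subunits Cox5a (0.73 ± 0.10) and Cox8a (0.65 ± 0.13). Of 25 glycolysis genes 17 rose and 3 fell. Slc16a3, a lactate exporter, rose by 1.75 ± 0.15 (SE, adjusted p = 3.41e-11) and Ldha, which makes lactate, by 1.07 ± 0.08 (SE, adjusted p = 1.28e-12), whereas Hk2, the inducible hexokinase, fell by 0.21 ± 0.09 (SE, adjusted p = 0.0425), a call lost without the filter on low counts, and the glucose transporter Slc2a1 (0.03 ± 0.06 SE, adjusted p = 0.67) did not pass. Among 21 sterol genes 16 rose and 2 fell, with Ebp (1.14), Pmvk (0.80), Mvd (0.68) and Sqle (0.60) among the rises, while 3 of 11 fatty acid genes rose and 3 fell, Fasn (−0.42 ± 0.05 SE, adjusted p = 4.44e-08) and Acaca (−0.41 ± 0.08 SE, adjusted p = 3.23e-05) among the falls. Sqle, an enzyme of cholesterol synthesis, was at 19.6, 17.5, 13.2 and 17.2 CPM with PBS and 26.4, 24.3, 26.1 and 25.1 CPM with 3x, with separate groups. Of 45 proteasome genes 37 rose and 1 fell, with a median of 0.33, and all 17 of the core particle rose, Psmb5 by 0.67 ± 0.09.

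None of 75 ribosomal protein genes rose and 67 fell, with a median of −0.30 that compares with −0.04 over all genes. Rps27 was at 1514, 1417, 1445 and 1554 CPM with PBS and 828, 900.1, 888 and 849.5 CPM with 3x (−0.78 ± 0.13 SE, adjusted p = 4.80e-06) and Rps12 fell by 0.94 ± 0.20 (SE, adjusted p = 1.50e-04). Both are proteins of the small subunit, and Rps27 was lower in every 3x library. Of 38 genes of ribosome biogenesis 34 fell and 0 rose, with a median of −0.42. Utp20 (−0.87 ± 0.10) and Gnl3 (−0.85 ± 0.05), which act in the nucleolus, and Polr1b (−0.78 ± 0.07), a subunit of RNA polymerase I, fell most, followed by Myc (SE, log2). Chaperones split by compartment, with 10 of 11 cytosolic members lower and 1 higher, but 10 of 14 members of the endoplasmic reticulum higher and 2 lower. Hspa1a, an inducible Hsp70, was at 34.0, 60.6, 97.8 and 32.6 CPM with PBS and 7.14, 20.8, 11.9 and 18.5 CPM with 3x (−1.95 ± 0.56 SE, adjusted p = 0.0031), values that vary widely within each group. Manf, secreted under stress of the reticulum, rose by 0.56 ± 0.10 (SE, adjusted p = 2.16e-05) and Dnajb9, a cochaperone there, fell by 0.94 ± 0.09 (SE, adjusted p = 9.03e-10).

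Interferon-stimulated genes as a list were close to the background, with 14 of 38 higher and 14 lower and a median of 0.01. Over all tested genes 34.7% were higher and 38.3% lower, with a median of −0.04. Ifit1, an RNA-binding antiviral protein, was at 175, 147, 196 and 163 CPM with PBS and 44.0, 72.1, 47.8 and 43.0 CPM with 3x (−1.72 ± 0.15 SE, adjusted p = 7.99e-11), where replicate 2 stood above the other 3 with 3x and below every PBS library, and Isg15, a ubiquitin-like modifier, was at 74.1, 67.7, 79.1 and 69.6 CPM with PBS and 41.7, 45.5, 42.9 and 39.2 CPM with 3x (−0.78 ± 0.10 SE, adjusted p = 6.30e-08). Ifi204, a DNA sensor, rose instead, by 3.17 ± 0.46 (SE, adjusted p = 7.17e-07), as did Gbp2 (1.01 ± 0.11) and Oas3 (0.86 ± 0.11; SE, log2). Irf7, the factor that amplifies the response, was at 63.4, 55.6, 78.7 and 54.2 CPM with PBS and 53.6, 55.9, 56.8 and 49.3 CPM with 3x (−0.23 ± 0.09 SE, adjusted p = 0.0293), with overlapping groups and a call that was lost without PBS replicate 3. The Ifitm genes, which are also known to respond to interferon, were not on this list and rose. The promoter of Ifitm3 is shown for that reason (RefSeq, GRCm38.p6, same window), with matches on either strand to the interferon response element (ISRE), searched as GAAA, any 2 bases and GAAA, and to TTCNNNGAA in capitals.
Ifitm3, chr7:141010695-141010994 (minus strand): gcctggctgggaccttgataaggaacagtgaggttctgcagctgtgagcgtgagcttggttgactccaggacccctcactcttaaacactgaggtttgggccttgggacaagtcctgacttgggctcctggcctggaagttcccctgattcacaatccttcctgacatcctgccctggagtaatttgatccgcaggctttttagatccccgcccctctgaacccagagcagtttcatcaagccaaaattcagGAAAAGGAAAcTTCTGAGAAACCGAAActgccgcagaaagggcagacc
It held the ISRE letters at positions 3 and 20 and the STAT palindrome at 14, the last 2 sharing bases. It was the only one of the 3 Ifitm promoters in the table with both, since that of Ifitm2 held the ISRE alone and that of Ifitm1, the largest rise of the family, held neither. The ISRE stood in 18 of the 27 interferon-stimulated promoters in the table (66.7%) and in 4.0% of all tested promoters.

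**Figure D4:**
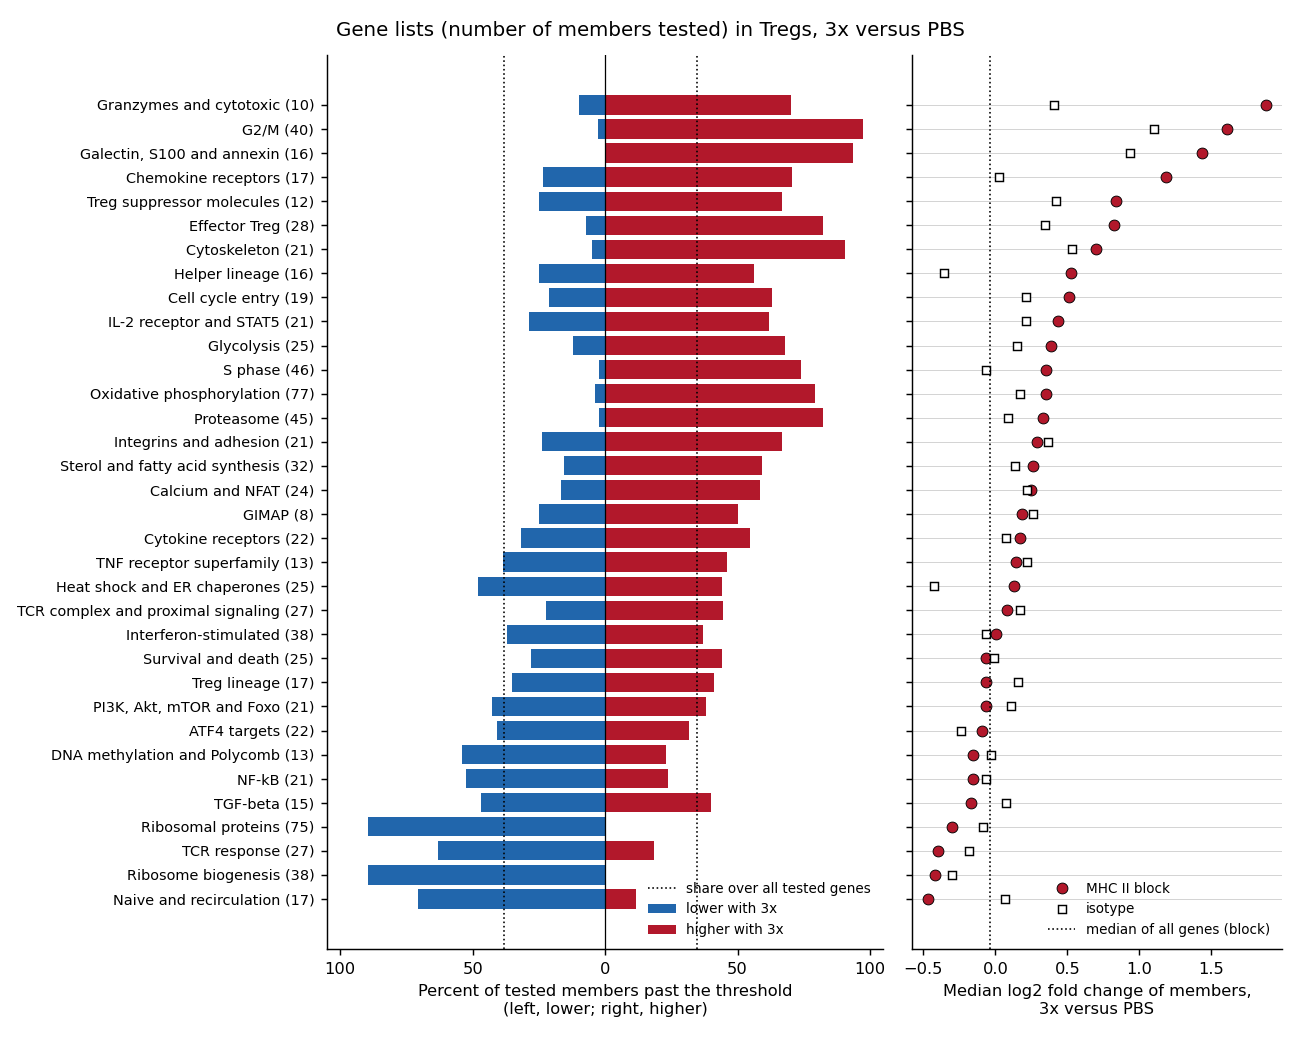
Left, share of the tested members of each gene list (number tested in parentheses) that were higher (red, to the right) or lower (blue, to the left) with 3x in Tregs of MHC II-blocked mice, with dotted lines at the shares over all tested genes, 34.7% and 38.3%. Right, median log2 fold change of the members with MHC II block (red circles) and with isotype antibody (open squares); granzymes, G2/M genes and galectins have the highest medians and naive genes, ribosome biogenesis and TCR response the lowest with block.

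The remaining lists were close to the background or small. Of 25 survival and death genes 11 rose and 7 fell, with Bak1, a pore former of mitochondria, at 0.98 ± 0.10 (SE, adjusted p = 1.35e-09), against Bcl2 at −0.92 ± 0.09 (SE, adjusted p = 1.10e-09). PI3K and mTOR genes gave 8 rises and 9 falls among 21, ATF4 targets 7 and 9 among 22, and TGF-beta genes 6 and 7 among 15. In the last, Tgfb3, one of 3 TGF-beta ligands, rose by 2.83 ± 0.21 (SE, adjusted p = 4.43e-12), while Tgfbr3, its coreceptor betaglycan, fell by 1.76 ± 0.17 (SE, adjusted p = 3.07e-10) and Smad7, the pathway's inhibitor, by 0.92 ± 0.07 (SE, adjusted p = 1.82e-11). Of 13 genes of DNA methylation and Polycomb 3 rose, Uhrf1 (0.67), Dnmt1 (0.51) and Ezh2 (0.48), and 7 fell, Tet1 (−0.91 ± 0.15 SE, adjusted p = 4.98e-06) among them. GIMAP genes, small GTPases of lymphocyte survival, gave 4 rises and 2 falls among 8.

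The same contrast with isotype antibody shows how far the 3x response differed when MHC class II was not blocked. There 3x moved 7886 genes (63.6%), 3880 up (31.3%) and 4006 down (32.3%), and the test of the difference between the 2 responses called 4835 genes (39.0%), 2516 higher (20.3%) and 2319 lower (18.7%) with block. The 2 responses share no library, and the isotype PBS libraries were the shallowest, at 18.28 to 34.58 M counts. Both responses were called in the same direction for 5840 genes and in opposite directions for 408. Of 2999 genes that rose in both, 890 rose further with block and 163 less far, and of 2841 that fell in both, 616 fell further with block and 200 less far, by the test of the difference. The markers of other cells moved strongly in the isotype arm: B cell markers summed to 131 to 767 CPM with isotype PBS, the highest in replicate 1, and to 28.6 to 38.1 CPM with isotype 3x, and plasma cell markers to 1531 to 1859 CPM and 82.8 to 179 CPM. NK cell markers summed to 45.5 to 75.7 CPM and 20.9 to 33.5 CPM. All 9 tested B cell, all 5 plasma cell, 8 of 9 myeloid, 6 of 7 dendritic cell, 5 of 6 NK cell, 8 of 10 MHC class II and 1 of 2 CD8 T cell markers were higher in the difference, none of them was lower, and the part of these cells in other genes was not tested. Without isotype PBS replicate 1, 7 of 9 B cell, 5 of 9 myeloid and 5 of 6 NK cell markers were higher. Without that library the difference called 4268 genes, 2168 higher and 2100 lower. At a log2 fold change of at least 1 the split was uneven, with 653 genes higher and 69 lower in all libraries, and 535 and 79 without that library.

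Cytotoxic genes rose more with block than with isotype antibody. Gzma was at 2.26 to 5.09 CPM with isotype PBS and 6.44 to 13.3 CPM with isotype 3x, and the difference of the 2 responses was 4.25 ± 0.53 (SE, adjusted p = 2.36e-06) on the log2 scale. Ifitm1 reached 4.66 to 16.7 CPM with isotype 3x, from 0.950 to 1.86 CPM (difference 3.69 ± 0.74 SE, adjusted p = 5.56e-04), and Ggt1 2.05 to 3.79 CPM, from 1.32 to 2.06 CPM (difference 3.85 ± 0.36 SE, adjusted p = 2.13e-08). The isotype 3x libraries of all 3 genes lay below every library with block and 3x. Cytotoxic genes were higher in the difference for 7 of 10 members and lower for 0, effector Treg genes for 19 and 0 of 28, and chemokine receptors for 10 and 2 of 17. The NK cell markers moved the same way, with a median difference of 1.91 over the 6 tested, as did the CD8 T cell markers with 2.72 over 2, and the part of such cells was not tested. Without isotype PBS replicate 1, effector genes stood at 17 and 0 and cytotoxic genes at 7 and 0. Gcg (1.87 ± 0.92 SE, adjusted p = 0.122), Il1rl1 (−0.04 ± 0.17 SE, adjusted p = 0.891) and Amotl1 (0.28 ± 0.33 SE, adjusted p = 0.555) did not differ beyond the threshold, and the 95% interval of the difference ran from −0.01 to 3.75 for Gcg and −0.40 to 0.95 for Amotl1. Other genes with large differences were Cacna1i (3.55) and Dnase1l3 (3.76), and for Scd1 (4.31), Pax5 (3.98) and Lyz2 (3.72) the response was in the isotype arm, with log2 fold changes of 0.18, −0.27 and 0.18 with block that did not pass. Pax5 is a defining B cell factor, whose call was lost without isotype PBS replicate 1, and Lyz2 a myeloid gene.

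S phase and translation set the arms apart as well. With isotype antibody 8 of 46 S phase genes rose and 17 fell, and with block 34 rose and 1 fell, and 39 were higher and 0 lower in the difference (33 and 0 without isotype PBS replicate 1). Mitotic genes rose in both arms, 39 of 40 in each, and 23 were higher and 1 lower in the difference, but 6 and 0 without that library. For ribosomal proteins, isotype 3x gave 7 rises and 26 falls, and in the difference 44 of 75 were lower and 1 higher (57 and 2 without that library). Proteasome genes were higher in the difference for 31 of 45 (30 without that library) and lower for 0. Chaperones of the endoplasmic reticulum fell with isotype 3x in 12 of 14 cases and rose in 1. Naive genes were split in the isotype arm, 6 up and 6 down, and 13 of 17 were lower and 1 higher in the difference. Treg lineage genes gave 9 rises and 0 falls with isotype antibody, and in the difference 10 of 17 were lower and 2 higher. Foxp3 rose by 0.61 ± 0.06 with isotype antibody (SE, log2), and the difference was −0.26 ± 0.08 (SE, adjusted p = 0.0132). Il12rb2 fell by 0.47 ± 0.16 with isotype antibody and rose with block, a difference of 2.33 ± 0.21 (SE, adjusted p = 2.03e-08). Ifit1 fell less with isotype antibody, from 34.8 to 55.1 CPM to 28.0 to 41.0 CPM, and the difference of −1.26 ± 0.21 (SE, adjusted p = 9.32e-05) was the largest of the genes named as lower, followed by Actn2 (−1.05), Gm47283 (−1.02), Nrn1 (−1.01), Vipr1 (−1.00), Gm14085 (−0.98), Itga7 (−0.96) and Zfp773 (−0.95). With PBS, Ifit1 was already higher with block, at 147 to 196 CPM, than with isotype antibody.

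**Figure D5:**
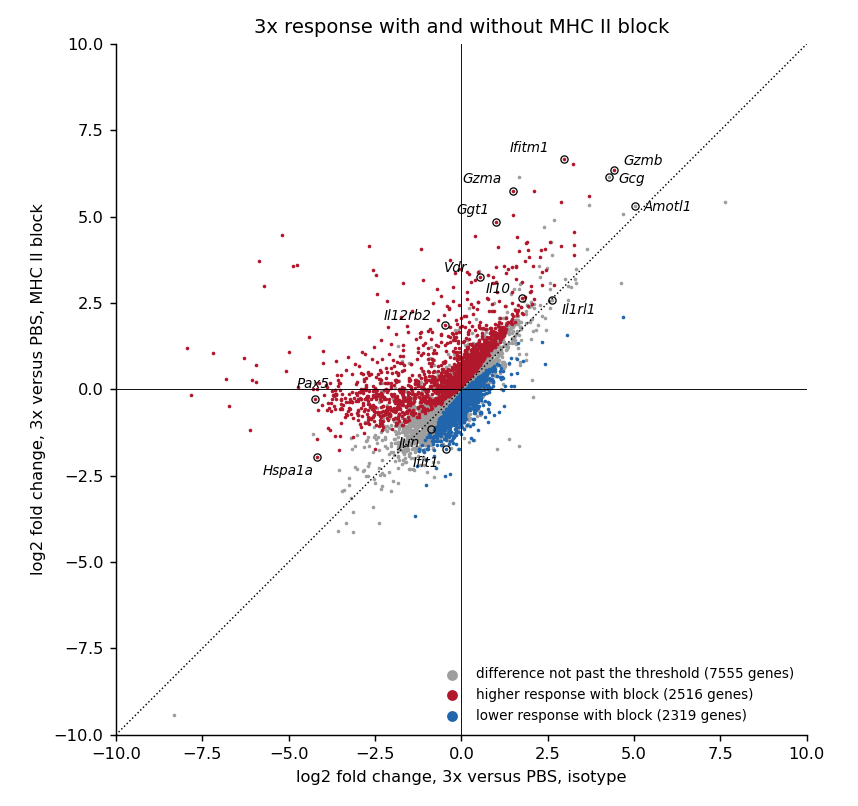
Log2 fold change of 3x over PBS in Tregs with MHC II block (vertical axis) against that with isotype antibody (horizontal axis) for 12390 genes; the dotted line marks equal responses. Genes whose responses differed by the test of the difference are red (2516, higher with block) or blue (2319, lower); Ifitm1, Gzma and Ggt1 stand far above the line, Amotl1 and Il1rl1 near it, and the red points at the left with little change on the vertical axis include the B cell gene Pax5.

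Against the other molecules, 4 libraries each at the same dose, day and antibody, 3x stood far from WT IL-2 and close to H16R, 2 comparisons that share the 3x libraries. Between 3x and WT IL-2, 8509 genes differed (68.7%), 3715 higher (30.0%) and 4794 lower (38.7%) with 3x. With only the libraries of these 2 groups fitted, the split was 3987 higher and 3920 lower. Ifitm1 was at 2.40 to 6.90 CPM with WT IL-2, 31.2 to 57.2 CPM with H16R and 60.4 to 154 CPM with 3x, and Gcg at 3.41 to 10.9 CPM, 67.3 to 85.5 CPM and 79.1 to 111 CPM. The groups given WT IL-2 lay below both muteins for both genes. Log2 differences between 3x and WT IL-2 were 4.97 ± 0.38 (SE, adjusted p = 2.78e-11) for Ifitm1 and 3.79 ± 0.34 (SE, adjusted p = 5.05e-10) for Gcg, and further genes higher with 3x were Epha3 (4.52), Amotl1 (4.22), Ggt1 (3.92), Lgals7 (3.86), Fam20a (3.63) and 1500009L16Rik (3.61). The genes named as lower were Csf3r (−5.71), S100a9 (−5.34), S100a8 (−4.90), C1qa (−4.80), C1qc (−4.69), Vcam1 (−4.56), Ngp (−4.39) and C1qb (−4.27), genes known from neutrophils, macrophages or stromal cells, and WT IL-2 replicate 1 held the highest myeloid sum of its group, 861 CPM, against 111 to 316 CPM in the other 3. Without it 8078 genes differed, 3635 higher and 4443 lower, and C1qa, C1qb, C1qc and Vcam1 no longer passed. The median log2 difference of the 9 tested myeloid markers was −3.52 with that library and −0.81 without it. Effector Treg genes were higher with 3x for 18 of 28 and lower for 6, oxidative phosphorylation genes for 63 and 1 of 77, and S phase genes for 39 and 0 of 46. Markers of other cells were lower with 3x than with WT IL-2, namely all 9 tested B cell, 5 plasma cell and 10 MHC class II genes, 8 of 9 myeloid, 6 of 7 dendritic cell and 5 of 6 NK cell markers. Without WT IL-2 replicate 1 this held for 3 B cell, 5 plasma cell, 6 MHC class II, 4 myeloid, 5 dendritic cell and 3 NK cell markers, and effector genes stood at 17 higher and 4 lower. The part of such cells was not tested. Areg (0.03 ± 0.12 SE, adjusted p = 0.809) and Itgae, an integrin chain of tissue T cells named after its values were seen (−0.04 ± 0.08 SE, adjusted p = 0.66), did not differ beyond the threshold, with 95% intervals of −0.20 to 0.27 and −0.21 to 0.12.

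Between 3x and H16R, which differ in structure by their substitutions at other positions of IL-2, 3127 genes differed (25.2%), 1572 higher (12.7%) and 1555 lower (12.6%) with 3x. The differences were small, with 58 genes higher and 13 lower by a log2 fold change of at least 1. By total counts without TMM the split was 1884 higher and 1195 lower, and without 3x replicate 4 the count was 1975. The genes with the largest positive difference among those with a mean above 5 CPM were Drc1 (1.93), Ggt1 (1.81), 1500009L16Rik (1.78), Amotl1 (1.73), Epha3 (1.50), Ifitm1 (1.47), Il13 (1.44) and Pparg (1.35). Amotl1 was at 7.06 to 11.8 CPM with H16R and 27.5 to 32.1 CPM with 3x (1.73 ± 0.15 SE, adjusted p = 8.35e-08), with separate groups, and Pparg, the lipid-sensing factor of tissue Tregs, at 4.16 to 6.80 CPM and 10.4 to 19.5 CPM (1.35 ± 0.25 SE, adjusted p = 4.91e-04). Il2ra was higher with 3x by 0.71 ± 0.09 (SE, adjusted p = 1.92e-05). Lower with 3x were Gpm6b (−1.11), Gm4841 (−0.93), Rgs16 (−0.77), Ccl5 (−0.76), Mmp9 (−0.75), Xcl1 (−0.73), Rin2 (−0.73) and Gm14085 (−0.72). Ccl5, a chemokine, was at 62.5 to 80.8 CPM with H16R and 33.3 to 54.6 CPM with 3x. For Gzmb (0.45 ± 0.22 SE, adjusted p = 0.163), Gcg (0.25 ± 0.29 SE, adjusted p = 0.62), Il10 (−0.27 ± 0.14 SE, adjusted p = 0.183) and Foxp3 (−0.08 ± 0.06 SE, adjusted p = 0.353) the muteins did not differ beyond the threshold, which does not show that they act alike. The 95% intervals of these differences were −0.00 to 0.89, −0.34 to 0.84, −0.56 to 0.01 and −0.20 to 0.03 on the log2 scale. Among the lists, 39 of 40 mitotic genes were higher with 3x and 1 was lower, 28 of 46 S phase genes were higher and 0 lower, and 15 of 27 TCR response genes were lower and 0 higher.

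In Tcons of the same mice, of which 2 per group had a library, the 3x response could be set against that of Tregs with the mouse as a block. The responses differed for 5595 of 12845 genes (43.6%), 2945 (22.9%) more positive and 2650 (20.6%) more negative in Tregs. By total counts without TMM the split was 2219 and 3509, and the count was 3578 without 3x replicate 1 and 3662 without PBS replicate 1, which leaves 1 Tcon library in that group. Gzmb was at 23.3 and 20.2 CPM in Tcons with PBS and 116 and 78.4 CPM with 3x, so that it rose in both cells and by 3.84 ± 0.30 (SE, adjusted p = 1.17e-05) more in Tregs (log2). Gzma went the other way, from 1.43 and 1.98 CPM to 173 and 161 CPM in Tcons, a difference of −1.20 ± 0.21 (SE, adjusted p = 9.25e-04). Vdr and Il21 were lower in Tcons with 3x, at 16.7 and 18.1 CPM against 46.8 and 37.4 CPM for Vdr and 11.1 and 12.4 CPM against 47.7 and 37.5 CPM for Il21. The differences were 4.36 ± 0.38 (SE, adjusted p = 2.03e-05) and 4.70 ± 0.40 (SE, adjusted p = 1.71e-05). Other genes with a more positive response in Tregs were Ifitm1 (4.07), Igf2bp3 (4.03), Dsp (4.01), Gcg (3.96) and Fam20a (3.78), and with a more negative one Prg2 (−2.73), Dscam (−2.46), Gm3373 (−2.40), Ncr1 (−2.37), Klrb1b (−2.34), Cyp4f16 (−2.14), Plbd1 (−2.04) and Serpinc1 (−2.01). Effector Treg genes were more positive in Tregs for 20 of 28 and more negative for 0, mitotic genes for 38 and 0 of 40, and ribosomal proteins more negative for 72 of 75. MHC class II genes summed to 664 to 672 CPM in Tcons with PBS and 2135 to 2251 CPM with 3x. Myeloid markers went from 104.2 to 114.1 CPM to 364 to 378 CPM, dendritic cell markers from 38.4 to 40.5 CPM to 159 to 183 CPM, NK cell markers from 88.5 to 101 CPM to 192 to 201 CPM, and basophil and mast cell markers from 105.4 to 123.2 CPM to 263 to 292 CPM. Ncr1 is among those NK cell markers and Prg2 among those of basophils and mast cells, and the part of other cells in the Tcon responses was not tested.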

How the data were processed

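RNA was sequenced from splenic Tregs and Tcons of individual mice as stranded polyA mRNA libraries. Per the paper's methods, the authors aligned reads with OSA to mouse B38 in Omicsoft Array Suite and quantified genes with Omicsoft's RSEM. The deposited expected counts per gene are not normalized, and 72.6% of the values above 0 are exactly whole, with no tolerance. The authors also deposited FPKM values, which divide by gene length and depth. 3 further deposited tables hold the authors' own DESeq2 comparisons (log2 fold changes, p-values adjusted for false discovery, Wald statistics) and were not used. Columns were matched to samples by the labels, and 0 columns belonged to other samples.

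Expected counts were rounded, and protein-coding genes with CPM above 0.5 in at least 4 of 32 Treg libraries and no empty cell were kept. One edgeR (4.0.16, R 4.3.3) quasi-likelihood model with TMM and a coefficient per group was fitted to the 32 Treg libraries, which share its estimate of the spread. Calls were made at an adjusted p under 0.1 (Benjamini-Hochberg over all genes tested). The difference between cell types was fitted to the 32 libraries of the 16 mice with both cells, with the mouse as a block. Each library is 1 mouse, except that the labels give 2 isotype WT IL-2 Treg libraries the same mouse. Both entered the shared fit as separate libraries. Standard errors were taken as the log2 fold change over the root of the F statistic, intervals from a t distribution. CPM in the text is TMM-scaled, while marker sums use library totals.

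Named genes were the 15 largest called rises and 15 largest falls with separate groups and a mean above 5 CPM, up to 4 members per list in each direction with well-known members of the list, and up to 8 genes in each direction of the other comparisons. Some genes that the rule names are not reported here. The comparison, the gene lists and the rules were chosen with earlier results of these data known. No pair of libraries agreed within counting noise (chi-square per degree of freedom 4.19 or more among the 8), so each counted once. The fit was tested on simulated counts. Alternatives were DESeq2 (1.42.0), limma (3.58.1) on log2(FPKM + 1) and log2(FPKM + 0.1), total counts, other filters and thresholds, all biotypes, thinned counts, empty cells read as 0, fewer libraries with or without a replicate block, and leaving out each library in turn. Promoters were read from a RefSeq table (GRCm38.p6) that held 9763 of the 12390 tested genes.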

Additional observations from a re-analysis of the deposited data

Results flagged for a closer look

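In 32 of 468 groups of 4 values, 2 for each of the 234 named genes, 1 library stood apart from the other 3 by Dixon's test, which flags about 1 group in 20 by chance. With MHC class II blocked, 3x replicate 2 was highest for Actn2 (5.49 CPM), Ccr6 (12.1 CPM), Ifit1 (72.1 CPM), Jun (1670.0 CPM) and Ncr1 (10.0 CPM) and lowest for Calm3 (227 CPM), Cdkn2a (5.37 CPM), Il2rb (1220.0 CPM), Manf (77.2 CPM), Pmvk (23.9 CPM), S1pr1 (375 CPM), Tgfb3 (5.37 CPM), Vim (1210.0 CPM) and Zap70 (305 CPM). 3x replicate 3 was highest for Pax5 (17.0 CPM) and Scd1 (10.5 CPM). 3x replicate 4 was highest for Gzma (188 CPM). PBS replicate 1 was highest for Cenpj (25.1 CPM) and lowest for Sirt3 (4.4 CPM). PBS replicate 2 was highest for Ifitm1 (1.64 CPM), Il17a (1.51 CPM) and Itgae (99.8 CPM) and lowest for Epha3 (0.0315 CPM) and Gzmc (0.599 CPM). PBS replicate 3 was highest for Csf3r (1.72 CPM), Ifitm6 (0.656 CPM), Ngp (1.46 CPM), S100a8 (1.19 CPM), S100a9 (3.36 CPM) and Scd1 (7.67 CPM) and lowest for Slc2a1 (42.7 CPM). PBS replicate 4 was highest for Pim2 (22.1 CPM).

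The response to 3x differed by 2 or more on the log2 scale between MHC class II block and isotype antibody for 42 of the named genes that passed the test of the difference, each more positive with block. For genes on the marker lists or known from other cell types the fitted differences were C1qb (9.59), C1qa (8.43), C1qc (8.36), S100a8 (7.09), S100a9 (6.26), Ngp (6.16), Csf3r (4.95), Vcam1 (4.78), Cma1 (4.04), Csf1r (4.00), Pax5 (3.98), Fcgr3 (3.92), Lyz2 (3.72), Mcpt8 (3.55), Prg2 (2.73), Ly6c2 (2.66), Ncr1 (2.64), Hdc (2.53) and Plbd1 (2.50). The C1q genes, S100a8, S100a9, Ngp, Csf3r, Cma1 and Mcpt8 had few reads in at least one of the 4 groups, so that these values are no measure of the difference, and the 95% interval ran from 4.05 to 15.13 for C1qb and from 2.27 to 11.91 for S100a8. The calls of C1qa, C1qb, C1qc, S100a8, Ngp, Csf3r, Vcam1, Csf1r, Pax5, Cma1 and Mcpt8 were lost without isotype PBS replicate 1. The isotype PBS libraries held the highest B cell sum, 767 CPM in replicate 1. For the remaining 23 they were Scd1 (4.31), Ifi204 (4.27), Gzma (4.25), Ifitm6 (4.08), Ggt1 (3.85), Dnase1l3 (3.76), Ifitm1 (3.69), Epha3 (3.63), Cacna1i (3.55), Il21 (3.19), Gzmk (2.82), Ifitm3 (2.80), Vdr (2.72), Ccr1 (2.70), Il4 (2.54), Il13 (2.52), Dsp (2.34), Ifitm2 (2.33), Il12rb2 (2.33), Hspa1a (2.23), Pparg (2.15), Cdkn2b (2.10) and Itga1 (2.05).

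Outside the protein-coding set, 2588 genes could be tested, of which 266 were higher and 850 lower with 3x (43.1% called). The highest rises were Gm17767, a lincRNA (5.76 on the log2 scale), Gm20186, a lincRNA (2.91), Pgk1-rs7, a processed pseudogene whose reads may come from Pgk1 (2.64), and Tmem2, without a biotype in the annotation used (1.98).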

How the results depend on the processing

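The calls of 3x against PBS with MHC class II blocked varied little, between 8592 and 9097 when 1 library was left out, and 9032 by DESeq2. Leaving out 1 library gave 4101 to 5655 genes for the difference from the isotype arm, 7860 to 8609 against WT IL-2, 1975 to 3679 against H16R (lowest without 3x replicate 4) and 3578 to 4896 for Tregs against Tcons (lowest without 3x replicate 1, then 3662 without PBS replicate 1, each leaving 1 Tcon library in a group). The cause was not tested. With a log2 fold change of at least 1, 1375 genes were left in the comparison with PBS, 722 in the difference from the isotype arm, 1171 against WT IL-2, 71 against H16R and 1170 against Tcons. At an adjusted p under 0.01, 1999 were left in the difference from the isotype arm, 1141 against H16R and 2594 against Tcons, since both thresholds are stricter by construction.

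Scaling moved the split of calls against H16R, with 1884 higher and 1195 lower by total counts and 1803 and 1153 by limma on log2(FPKM + 1). In the difference from the isotype arm 2792 were higher and 1988 lower by total counts, 2617 and 2037 by limma on log2(FPKM + 1), and 3174 and 1989 with all biotypes. The excess of lower genes against WT IL-2 turned to 3987 higher and 3920 lower with only the groups compared, 3690 and 3386 with the replicate block added to that fit, 4388 and 4260 without a filter on CPM, and 4705 and 4417 with all biotypes. Against PBS the split turned to 4769 and 4621 without that filter and 5203 and 4791 with all biotypes, and widened to 3966 and 5128 by total counts and 3953 and 5035 by limma on log2(FPKM + 1). No scaling moved the median of all genes by more than 0.1 on the log2 scale. Of the 234 single genes named, none changed direction while called. In that comparison Hk2, Irf7, Stat5b, Nfkbia, Dusp2, Gm4841, Rnf17 and C1qb were the ones that lost their call under an alternative other than a stricter threshold. Calls lost in other comparisons without a single library are given with those comparisons. C1qb had almost no reads with PBS, and its fitted fold is no measure. Of 88 counts of list members higher or lower in that comparison, 5 moved beyond a set margin with only the groups compared and 4 with all biotypes. No alternative other than a stricter threshold moved more than 5.

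The replicate numbers of the labels name mice and are not stated to pair them between groups. Same-numbered 3x and PBS libraries deviated together by correlations of 0.05, 0.08, −0.03 and 0.05. When that number was entered as a replicate block, 9276 genes were called against PBS, 4642 in the difference from the isotype arm, 7076 against WT IL-2 and 4188 against H16R, and for Tregs against Tcons, where the mouse is a real pair, 4531 were called without that block.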
